A study of Mus musculus with 36 samples.

Results

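Capillary endothelial cells of the mouse left ventricle were followed from sham surgery to 14 days after ischemic injury. A well of a sorted plate was counted as one of them when it held at least 1000 unique molecular identifiers (UMIs, random tags that mark each captured transcript), mitochondrial transcripts and spike-ins left aside, and met 4 conditions on marker genes. Pecam1, Cdh5, Egfl7, Kdr, Emcn, Cav1, Ly6c1 and Fabp4 together made up at least 0.6% of its UMIs, 8 macrophage genes stayed under 1% and 5 collagen and matrix genes under 2%. In addition, the UMIs of the capillary genes Cd300lg, Gpihbp1, Timp4, C1qtnf9 and Aqp1 exceeded those of Plvap, Vwf, Apln, Mest and Igf2, genes of activated or non-capillary endothelium. This selected 304 cells out of 3101 wells with at least 1000 UMIs, after 1 day 14 sham plate that repeated another had been left out (3146 wells with it). A further 66 wells passed the endothelial conditions without an excess of capillary genes and are called other endothelial cells below.

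The cells came from the left ventricle of C57BL/6 males aged 8 weeks, from the infarcted region or, in sham hearts, the matching one, and were sequenced with SORT-seq, in which each well of a plate receives 1 sorted cell. Mice underwent sham surgery and were sampled at day 1 (Sham day 1, 4 plates) or day 14 (Sham day 14, 7 plates used), or ischemia-reperfusion (IR), in which the left anterior descending (LAD) artery was tied off for 1 hour, sampled at day 1 (9 plates), day 3 (7 plates) or day 14 (3 plates). Myocardial infarction (MI), a permanent ligation of the same artery, was sampled at day 3 (5 plates). No day 3 sham was analysed here, so both day 3 groups were set against the day 1 and day 14 shams together, and the MI plates carry a protocol label of their own, so that surgery and library batch cannot be told apart for MI. The labels do not say which plates share a mouse, so p-values measure the spread between plates, which may be technical.

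Capillaries are the site where the heart takes up most of its fuel. Lipoprotein lipase, made mainly by cardiomyocytes, is carried to the capillary lumen and held there by GPIHBP1, and the fatty acids it frees cross the endothelium with the help of CD36 and fatty acid-binding proteins, a program switched on by the transcription factors MEOX2 and TCF15. The same cells exchange water through AQP1, form a barrier of tight and adherens junctions, keep the cell cycle shut under steady flow, and can leave this resting state to sprout new vessels or to recruit leukocytes.

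Pooled over plates, capillary cells had the highest share of wells in the shams, but plates of sham and IR hearts overlapped. They made up 98 of 432 wells (22.7%) on Sham day 1 plates, with 19.33, 20.51, 23.36 and 27.55% on the individual plates, and 63 of 362 wells (17.4%) on Sham day 14 plates. IR hearts gave 57 of 502 wells (11.4%) at day 1, 23 of 608 (3.78%) at day 3 and 49 of 476 (10.3%) at day 14. Single plates ran from 2.38 to 20% at day 1, from 1.49 to 18.18% at day 3 and from 8.61 to 15.32% at day 14. After MI only 14 of 721 wells (1.94%) were capillary cells, and the 5 plates lay at 0.67, 1.16, 1.85, 2.63 and 3.57%, all below every Sham day 1 plate. The 7 Sham day 14 plates ranged from 0.0 to 26.15%, with 4.35% on the next lowest, and 1 of them, with 20 wells, held no capillary cell and so lay below the MI plates. Among wells that passed the endothelial conditions, 95.1 and 96.9% were capillary cells in the day 1 and day 14 shams and 34.1% in MI. The IR groups had 69.5% at day 1, 85.2% at day 3 and 94.2% at day 14. These shares describe the rule as it fell on each group. They depend on how many other cells were sorted and give no count of capillary cells in the tissue. Expression was compared on the 20 plates with at least 5 capillary cells, 276 cells in all (4 Sham day 1, 4 Sham day 14, 7 IR day 1, 1 IR day 3, 3 IR day 14 and 1 MI plate), and sham plates below are the 8 among these unless stated otherwise.

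**Figure D1:**
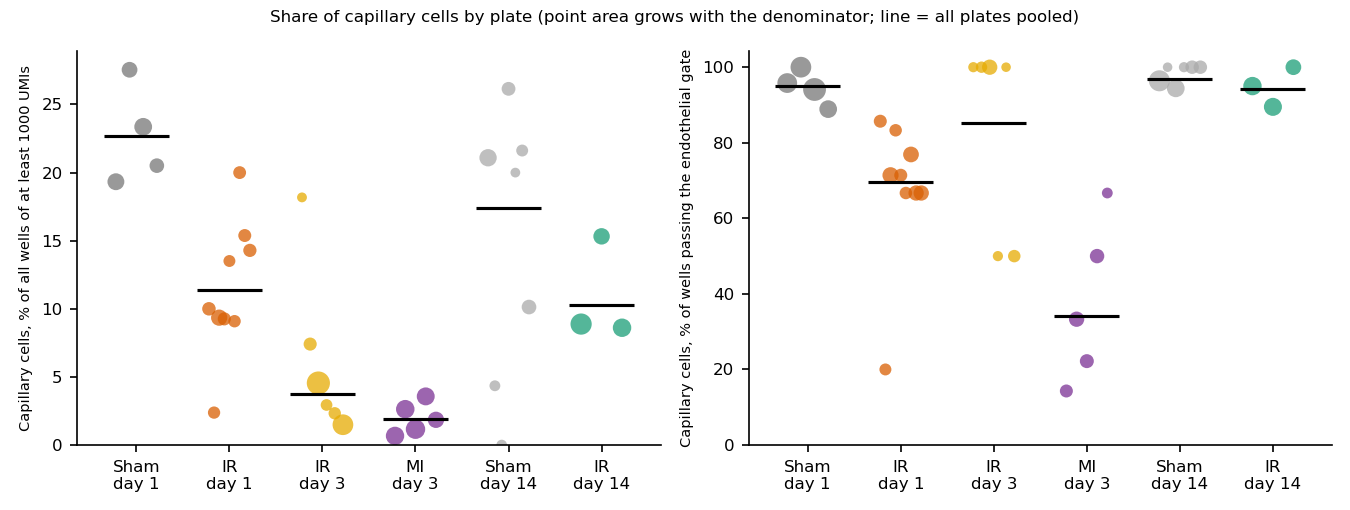
Percent of wells that were capillary endothelial cells on each plate, by group, among all wells with at least 1000 UMIs (left) and among wells that passed the endothelial conditions (right). Each point is 1 plate, its area grows with the number of wells in the denominator, and the line is the value pooled over plates: it drops from 22.7% in Sham day 1 to 1.94% in MI on the left, and from 95.1% to 34.1% on the right.

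The cells carried the genes they were chosen by, which is a description and no test. Fabp4, a fatty acid-binding protein, gave at least 1 UMI in 99.3% of capillary cells, Cav1, the coat protein of caveolae, in 92.4%, and Cdh5, the adherens junction cadherin, in 90.1%. Of the capillary genes, Gpihbp1 was seen in 87.5%, Cd300lg, a receptor of the apical endothelial surface, in 84.2%, the water channel Aqp1 in 72.0%, the adipokine C1qtnf9 in 59.2% and the protease inhibitor Timp4 in 52.6%. Apln, a peptide of sprouting tip cells, was seen in 8.88% of capillary cells and in 43.9% of the other endothelial cells. Vwf, the clotting factor of larger vessels, was seen in 14.5 and 53.0%, respectively.

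On the Sham day 1 plates, 12 arterial markers summed to 0.0741 to 0.149% of UMIs, 8 measured venous markers to 0.0406 to 0.0922% and 7 measured lymphatic markers to 0.0077 to 0.0142%, none of them used by the rule. The 10 endocardial markers summed to 0.0104 to 0.0396%, but 2 of them, Plvap and Vwf, counted against a well in the rule. At the edge of the rule, 5 capillary cells had an excess of 1 capillary UMI and 15 an excess of 2, while 13 of the other endothelial cells had a difference of 0 and 2 a difference of -1. Endothelial markers made up a median of 1.48% of UMIs in the capillary cells (0.611 to 5.99%). Just inside that limit lay 8 cells at 0.6 to 0.7%, and 11 wells at 0.5 to 0.6% lay just outside it.

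The capillary genes did not keep the same level in every group. Levels are pooled over cells and given as CPM (UMIs scaled to an equal total, not divided by gene length), in the order Sham day 1, Sham day 14, IR day 1, day 3 and day 14, and MI. Cd300lg was at 1290, 1420, 639, 1140, 1160 and 217 CPM and C1qtnf9 at 488, 436, 145, 155, 453 and 27.8 CPM. Aqp1 was at 1630, 1520, 976, 727, 1430 and 544 CPM. Gpihbp1 ran differently, with 1330, 1010, 1260, 685, 1040 and 1620 CPM, the highest level being that of the 14 MI cells. Of the genes that counted against a well, Apln was at 3.56 CPM in Sham day 1 and at 258 and 244 CPM in IR day 1 and MI, where single cells gave 75.4 and 65.9% of its UMIs. Mest, an imprinted gene of the fetal endothelium, was at 46.3, 169 and 533 CPM in those groups. Because these genes chose the cells, no test is given.

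**Figure D2:**
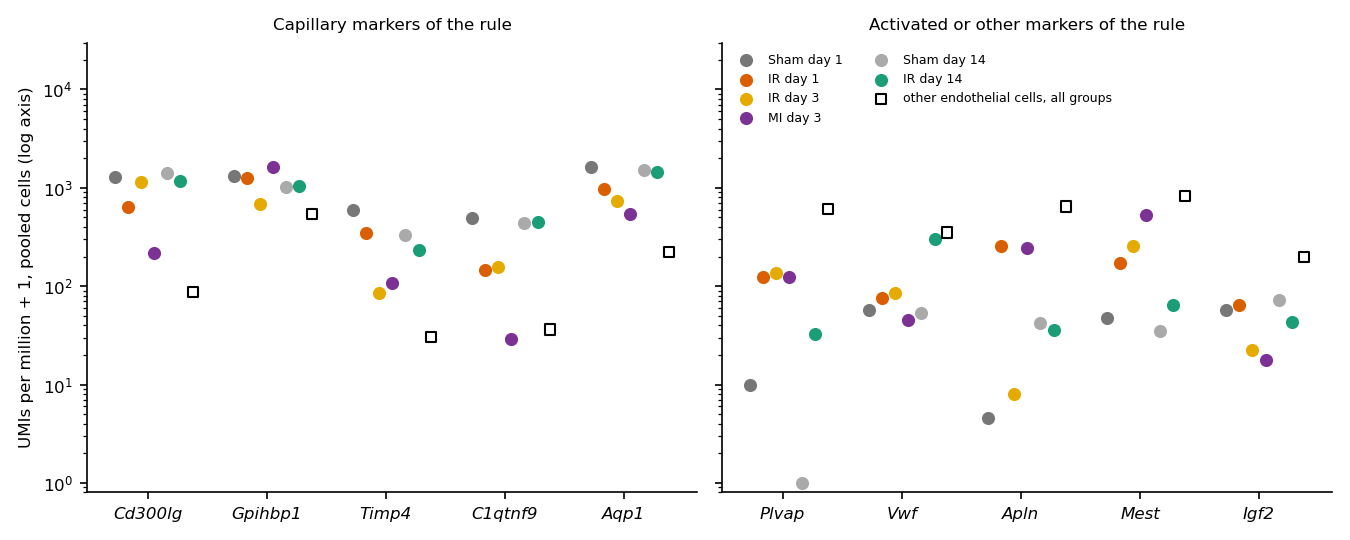
Pooled CPM plus 1 (log axis) of the 5 capillary genes and the 5 genes set against them, by group, in capillary cells, with open squares for the other endothelial cells. Cd300lg falls from 1290 CPM in Sham day 1 to 217 CPM in MI, whereas Gpihbp1 is at 1330 and 1620 CPM in these groups.

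Depth was alike in 5 of the 6 groups, with medians of 3017 to 3361.5 UMIs per capillary cell, and higher in MI (10529.5). Single deep wells weighed on some plates: 1 cell of 137429 UMIs gave 83.0% of the UMIs of IR day 1 replicate 7, and 1 cell of 51380 UMIs gave 56.5% of Sham day 1 replicate 4. The 20 plate sums ranged from 15186 to 249579 UMIs. RNA of other cell types differed between groups as well. The 15 cardiomyocyte markers summed to 1.48, 1.64, 1.64 and 2.2% of capillary UMIs on the Sham day 1 plates and to 0.211 to 0.71% (median 0.28%) on the 7 IR day 1 plates. The neutrophil markers summed to 0.0275 to 0.0768% in Sham day 1, where S100a8, S100a9, Il1r2 and Clec4d were at 0, and to 0.0342 to 0.497% (median 0.101%) in IR day 1. The macrophage markers summed to 0.00259 to 0.022% in Sham day 1 (median 0.00999%) and to 0.0177 to 0.23% in IR day 1 (median 0.0601%), and 4 of the 8 tested (Cd14, Tyrobp, Lgals3 and Ccr2) were higher there. These 3 lists move with the results below, and their part in them was not tested except where a value without the cells concerned is given.

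IR day 1 was compared with Sham day 1. The capillary transcription factor Tcf15, the lipase Lpl, the matrix protein Sparcl1, the caveolar protein Sdpr and the cell cycle inhibitor Cdkn1c all fell, without overlap between the plates of the groups except for Cdkn1c. Mcam, Ecscr, Slc3a2, Anxa2, Actb and Actg1 rose, again without overlap. These were not the largest changes. Myh6, Hrc, Srl, Tmem38a, Kcnk3, Pln, Fhl2 and Casq2 fell by more, with Myh6 and Pln among the cardiomyocyte markers. S100a8, S100a9, Spp1, Clec4n, Cxcl2, Thbs1, Slc2a1, Cd14, Cebpb and Lcp1 rose by more. Of these, S100a8 and S100a9 are neutrophil markers and Cd14 is a macrophage marker of the lists. In edgeR's quasi-likelihood test over 7402 genes, 369 genes passed an adjusted p of 0.05 (4.99% of genes tested), 145 higher (1.96%) and 224 lower (3.03%). The plates did not overlap for 2.84% of the genes tested, 0.851% higher and 1.99% lower. Over all genes tested the log2 fold change had a median of -0.15. With median-of-ratios scaling in place of TMM it was 0.03 and the split became 208 higher and 166 lower, so that small changes near 0 cannot be given a direction. Of the 145 higher genes, 54 were at least 5 times higher in neutrophil wells and 36 in macrophage wells than in the capillary cells, and of the 224 lower genes 72 were at least 5 times higher in cardiomyocyte wells. For 77 of the higher and 148 of the lower genes, no one of the 4 kinds of well (cardiomyocyte, macrophage, fibroblast, neutrophil) exceeded the capillary cells by that factor. Of all 7402 genes tested, 3.49% met it in neutrophil wells, 3.04% in macrophage wells, 1.89% in fibroblast wells and 2.15% in cardiomyocyte wells, and 91.4% in none of them.

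Genes of lipid uptake were led by Tcf15 and Lpl. Tcf15 was at 319, 337, 461 and 767 CPM on the Sham day 1 plates and at 58.9 to 257 CPM (median 131) on the 7 IR day 1 plates. Every IR day 1 plate was below every sham plate. The log2 fold change was -2.16 (SE 0.37, adjusted p = 1.91e-05, edgeR). At an equal depth of 1000 UMIs per cell, 34.7% of Sham day 1 cells and 3.51% of IR day 1 cells had a Tcf15 UMI. Tcf15 lies on chromosome 2 (chr2:152143561-152149097, plus strand, GRCm38), and in cardiomyocyte wells it was near absent (10.12 CPM against 328.7 CPM in capillary cells).

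Lpl was at 2717, 2943, 3893 and 3903 CPM in Sham day 1 and at 870 to 2340 CPM (median 1425) in IR day 1, with every plate lower (log2 fold change -1.54, SE 0.3, adjusted p = 0.000208, edgeR). Here RNA of cardiomyocytes has to be set beside the result, because Lpl was at 12214 CPM in cardiomyocyte wells and at 2282 CPM in capillary cells. Without the cells that held over 2% cardiomyocyte markers, an alternative chosen after seeing the data, the Lpl change was -1.10 (adjusted p = 0.0309) and that of Tcf15 was -1.99 (adjusted p = 0.000636). Both were the only genes to pass out of 14 tested in the list of lipid uptake and handling, whose median log2 fold change was -0.80 against -0.15 over all genes. Cd36, the fatty acid translocase, was at 4221, 6555, 7597 and 7734 CPM in Sham day 1 and at 2368 to 8495 CPM (median 4842) in IR day 1. These groups overlapped (log2 fold change -0.78, SE 0.3, adjusted p = 0.123, edgeR). Fabp5, a further fatty acid-binding protein, did not pass either (-0.82, SE 0.34, adjusted p = 0.182).

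Sdpr and Sparcl1 fell as well. Sdpr (cavin 2), which shapes the caveolar coat, was at 1452, 2304, 2460 and 2518 CPM in Sham day 1 and at 362 to 1199 CPM (median 745) in IR day 1, a log2 fold change of -1.81 (SE 0.31, adjusted p = 1.18e-05, edgeR). Sparcl1, a matricellular glycoprotein of quiescent vessels, was at 1487, 2024, 2054 and 2139 CPM and at 228 to 798 CPM (median 622), respectively (-1.93, SE 0.31, adjusted p = 4.54e-06). It lies on chromosome 5 (chr5:104079111-104113733, minus strand, GRCm38). Each IR day 1 plate was below each sham plate for both genes. Both were far lower in the other wells, with Sdpr at 88.02 CPM and Sparcl1 at 87.18 CPM in cardiomyocyte wells against 1593 and 1898 CPM in capillary cells. In the list of 17 basement membrane and matrix genes Sparcl1 was the 1 gene that fell, and Col15a1 and Fn1 rose. Col15a1 lost the call in 4 of 20 fits that left out a plate and under 5 of 17 other alternatives. The Fn1 call rested on replicate 1, where a single cell gave most of its UMIs: the log2 fold change was 2.49 with and -0.11 without that plate.

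Of 21 tested genes of endothelial identity, 1 rose and 1 fell, and the list median of -0.08 lay close to that of all genes. Tie1, an orphan receptor that works with the angiopoietin receptor, was at 777, 926, 975 and 1331 CPM in Sham day 1 and at 353 to 656 CPM (median 541) in IR day 1 (log2 fold change -1.24, SE 0.3, adjusted p = 0.00476, edgeR). Ecscr, a surface protein of endothelial cells that acts in migration, went the other way, from 72.1, 77.7, 121 and 123 CPM to 263 to 559 CPM (median 324), a change of 1.76 (SE 0.4, adjusted p = 0.00214). No plate value overlapped between the groups for either gene. The VEGF receptor Flt1 was at 565 to 889 CPM and at 118 to 1119 CPM, respectively (-0.34, SE 0.33, adjusted p = 0.68), so a change was not detectable in it.

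Promoter windows of 3 genes of this comparison are given as examples of genes that fell (Sdpr, Tie1) or rose (Mcam) without overlap between plates. They run from 250 bases before to 50 bases after the start of the gene in RefSeq (GRCm38.p6), 5′ to 3′ on the gene's strand, at chr1:51288876-51289175 (plus) for Sdpr, chr4:118489800-118490099 (minus) for Tie1 and chr9:44134408-44134707 (plus) for Mcam. Capitals mark AGGAA or its reverse complement TTCCT, the only motif searched, which holds the core letters that ETS factors such as ERG and FLI1 recognize. The windows of Sdpr and Tie1 hold 4 matches each and that of Mcam 1, and in the windows searched but not shown Slc3a2 held 2, Rsad2 1 and Slc2a1 0. Over all 32851 windows of this length 66.7% hold at least 1 match, with a median of 1 match, so the letters alone single out none of these genes.
Sdpr: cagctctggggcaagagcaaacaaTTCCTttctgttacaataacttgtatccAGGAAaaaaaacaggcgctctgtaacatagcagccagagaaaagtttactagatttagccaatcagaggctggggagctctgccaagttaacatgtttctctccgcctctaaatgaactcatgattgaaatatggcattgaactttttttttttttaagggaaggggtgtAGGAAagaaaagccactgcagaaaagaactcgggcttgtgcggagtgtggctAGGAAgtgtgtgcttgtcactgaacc
Tie1: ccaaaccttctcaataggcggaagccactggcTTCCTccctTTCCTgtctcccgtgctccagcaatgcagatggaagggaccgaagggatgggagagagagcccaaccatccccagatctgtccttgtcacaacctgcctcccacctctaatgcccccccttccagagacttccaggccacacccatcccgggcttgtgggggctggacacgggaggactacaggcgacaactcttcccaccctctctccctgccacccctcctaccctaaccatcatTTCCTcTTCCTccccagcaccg
Mcam: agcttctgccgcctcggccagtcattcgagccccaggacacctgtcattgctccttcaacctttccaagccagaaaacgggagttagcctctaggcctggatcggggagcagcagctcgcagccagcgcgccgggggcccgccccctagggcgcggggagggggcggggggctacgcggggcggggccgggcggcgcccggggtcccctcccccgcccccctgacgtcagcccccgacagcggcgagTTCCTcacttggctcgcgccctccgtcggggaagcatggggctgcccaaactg

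Among 11 tested genes of junctions and adhesion, 2 fell and 0 rose, with a list median of -0.70. These were the junctional adhesion molecule Jam2 (484, 617, 673 and 861 CPM against 114 to 461 CPM, median 308, log2 fold change -1.43, SE 0.33, adjusted p = 0.00214, edgeR) and the collagen receptor subunit Itga1 (-1.58, SE 0.44, adjusted p = 0.0169), which lost the call under 6 of 17 alternatives other than leaving out a plate. The plates of the 2 groups did not overlap for Jam2 and overlapped for Itga1. Cdkn1c (p57), which holds cells out of the cycle, was at 154, 321, 414 and 672 CPM in Sham day 1 and at 0 to 155 CPM (median 65.9) in IR day 1, a change of -2.77 (SE 0.44, adjusted p = 3.23e-06). Its ranges met at 154 and 155 CPM. Cdkn1a (p21), an inhibitor induced by stress, rose from 69.1, 152, 161 and 198 CPM to 157 to 1427 CPM (median 923; log2 fold change 2.25, SE 0.41, adjusted p = 3.89e-05), though 47.7% of its IR day 1 UMIs came from the deepest well. In the list of 13 genes of shear response and quiescence these were the genes that passed.

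Transporters moved in opposite directions. Slc3a2, the heavy chain of the large amino acid transporters, was at 86.3, 108, 142 and 220 CPM in Sham day 1 and at 301 to 870 CPM (median 428) in IR day 1 (log2 fold change 1.66, SE 0.38, adjusted p = 0.00198, edgeR). Slc2a1, the glucose transporter GLUT1, rose from 0, 0, 4.01 and 8.63 CPM to 39.2 to 230 CPM (median 93.2, adjusted p = 2.56e-05), with 54.8% of its UMIs from 1 well. Since Sham day 1 held only 2 UMIs of Slc2a1, its ratio of 42.6 has an exact 95% counting interval of 11.3 to 359. Both transporters were higher on every IR day 1 plate than on any sham plate. The nucleoside carrier Slc28a2 fell from 319, 322, 341 and 381 CPM to 0 to 400 CPM (median 170; -1.52, SE 0.41, adjusted p = 0.0131), and the efflux pump Abcb1a passed narrowly (-1.32, SE 0.42, adjusted p = 0.0495). Abcb1a lost the call in 14 of 20 fits that left out a plate and under 12 of 17 other alternatives. In all, 2 of 14 transport genes rose and 2 fell. The carbonic anhydrase Car4, bound to the capillary surface, did not pass (-0.90, SE 0.35, adjusted p = 0.127).

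Of 22 cytoskeleton genes 8 rose, 0 fell and 14 did not pass, with a median of 0.83 against -0.15 over all genes. Actg1 was at 910, 957, 1439 and 1441 CPM in Sham day 1 and at 2651 to 5365 CPM (median 3227) in IR day 1 (log2 fold change 1.38, SE 0.32, adjusted p = 0.00252, edgeR). Actb was at 1523, 2175, 2177 and 2563 CPM and at 3829 to 8186 CPM (median 5338), respectively (1.25, SE 0.33, adjusted p = 0.0103). The actin binder Pfn1 (1.53, SE 0.35, adjusted p = 0.00227) and the annexin Anxa2 (1.38, SE 0.34, adjusted p = 0.00459) rose too, Anxa2 from 180, 272, 341 and 406 CPM to 667 to 1580 CPM (median 901). The plates of the groups did not overlap for any of these 4 genes. Actb was also at 13370 CPM in neutrophil wells and 10411 CPM in macrophage wells, above its level of 4019 CPM in capillary cells. Emp1, a membrane protein of injured epithelia and endothelia, was at 96.2, 104, 123 and 209 CPM and at 248 to 1293 CPM (median 400; 1.99, SE 0.41, adjusted p = 0.000531), with 53.8% of its UMIs from 1 well.

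**Figure D3:**
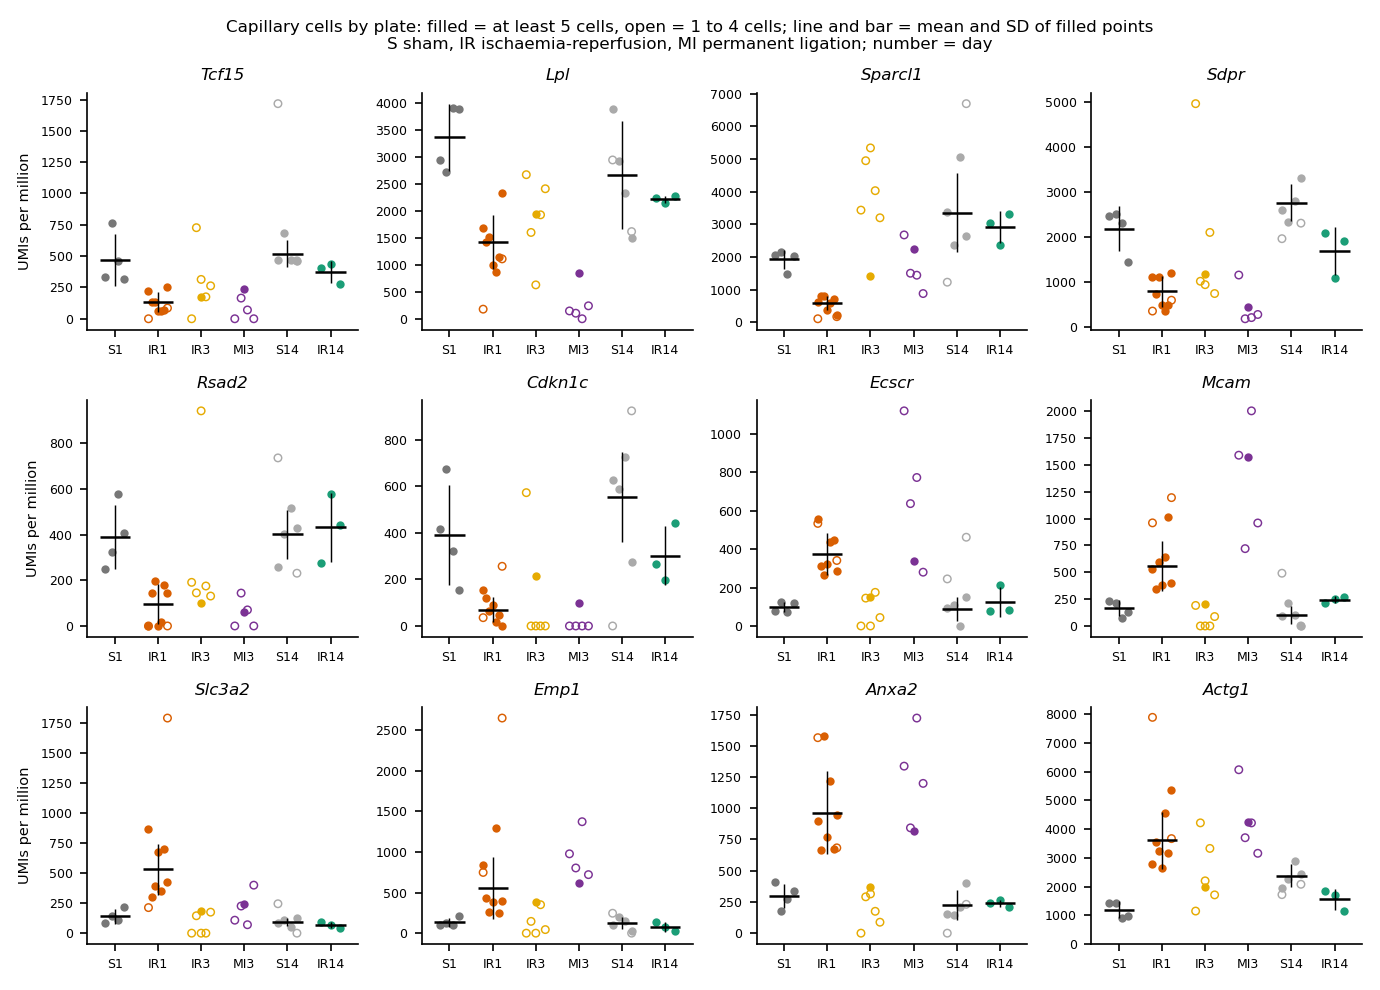
CPM per plate of 12 genes in capillary cells, by group. Filled points are plates with at least 5 capillary cells, open points plates with 1 to 4, and the line and bar are the mean and SD of the filled points. Tcf15, Lpl, Sparcl1, Sdpr, Rsad2 and Cdkn1c are low in IR day 1, and Ecscr, Mcam, Slc3a2, Emp1, Anxa2 and Actg1 are high there. Tcf15 goes from 471 ± 207 (SD, n = 4) in Sham day 1 to 132 ± 79.1 (n = 7) in IR day 1.

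Genes of sprouting and of the response to VEGF passed for 2 of 16. Mcam (CD146), an adhesion molecule and co-receptor on angiogenic endothelium, was at 76.1, 132, 218 and 233 CPM in Sham day 1 and at 340 to 1013 CPM (median 528) in IR day 1 (log2 fold change 1.56, SE 0.39, adjusted p = 0.00508, edgeR). All IR day 1 plates were higher. Without Sham day 1 replicate 3 the change was 1.29 and no longer passed (adjusted p = 0.0825). Pgf, a ligand of FLT1, was at 0, 4.01, 18.9 and 44 CPM and at 0 to 701 CPM (median 39.2), respectively (3.63, SE 0.72, adjusted p = 0.000266). These ranges overlapped, 82.3% of the IR day 1 UMIs came from 1 well, and without that plate, replicate 7, the change was 1.76 (adjusted p = 0.258).

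Interferon genes were lower where they passed: 3 of 25 fell and 0 rose, and the list median was -0.60. Rsad2 (viperin), an antiviral enzyme, was at 250, 322, 407 and 577 CPM in Sham day 1 and at 0 to 198 CPM (median 143) in IR day 1, without overlap (log2 fold change -2.40, SE 0.43, adjusted p = 3.02e-05, edgeR). The guanylate-binding proteins Gbp2 (-1.66, SE 0.48, adjusted p = 0.0239) and Gbp4 (-1.62, SE 0.45, adjusted p = 0.0174) fell as well, and each lost the call in 3 of 20 fits that left out a plate and under 6 of 16 other alternatives. All 4 tested genes of MHC class II fell, but they rested on few cells. H2-Ab1 was at 0, 8.63, 305 and 319 CPM in Sham day 1 and at 0 to 67.6 CPM (median 0) in IR day 1 (-3.41, SE 0.79, adjusted p = 0.00219), and only 6.12% of Sham day 1 cells had a UMI of it. Cd74, the invariant chain, was at 0, 0, 550 and 605 CPM in Sham day 1, where 1 cell gave 71.6% of its UMIs.

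Of 12 tested genes of leukocyte adhesion and chemokines, Il6, Ccl2 and Cxcl2 passed, all higher, and the list median was 1.35. Il6 had 21 UMIs in 3 of the 57 IR day 1 cells, 61.9% of them from 1 cell. Cxcl2, a neutrophil attractant, was at 0, 0, 4.01 and 18.9 CPM in Sham day 1 and at 31.1 to 685 CPM (median 369) in IR day 1 (adjusted p = 3.56e-08, edgeR). With 3 UMIs in Sham day 1 the ratio was 60.0 (exact 95% counting interval 20.1 to 295). Cxcl2 was at 7454 CPM in neutrophil wells and at 99.09 CPM in capillary cells over all groups. The neutrophil gene S100a8 itself was at 0 on all 4 Sham day 1 plates, where 3 UMIs over the group would be 5.34 CPM, and at 58.9 to 2083 CPM (median 360) in IR day 1. Ccl2, a monocyte attractant, was at 0, 0, 8.01 and 47.3 CPM and at 0 to 788 CPM (median 127), respectively (4.12, SE 0.66, adjusted p = 4.33e-06), with overlap.

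Thrombospondin 1 (Thbs1), an inhibitor of angiogenesis, rose from 4.01, 8.63, 9.47 and 11 CPM to 65.9 to 1461 CPM (median 171), a log2 fold change of 5.04 (SE 0.68, adjusted p = 4.86e-08, edgeR), without overlap. Of 20 immediate early genes 3 rose. Ier3, a survival gene, was at 66, 108, 181 and 218 CPM and at 399 to 1251 CPM (median 412; 1.68, SE 0.38, adjusted p = 0.00195), all IR day 1 plates being higher. Fkbp5, which is induced by glucocorticoids, rose from 8.63, 9.47, 22 and 36.1 CPM to 85.6 to 324 CPM (median 155, adjusted p = 0.00273).

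In the list of protein synthesis and nucleolus 5 of 14 genes rose (Eif4a1, Eif5a, Nme1, Odc1 and Srm) and 0 fell, with a median of 1.13. Among 9 genes of metallothionein and acute phase, Mt1, Mt2, Hp and Fkbp5 rose and Angptl2 fell, with a median of 1.11. The deepest well gave 63.2% of the Mt1 UMIs and 73.3% of the Mt2 UMIs of IR day 1. Mt1 lost the call in 5 of 20 fits that left out a plate and under 7 of 17 other alternatives. No gene passed among 10 of vascular tone, 11 of heat shock, 11 of hypoxia and 11 of MHC class I, with medians of 0.23, 0.33, 0.13 and -0.46. Among the 11 secreted factors that the study picked in other experiments, Basp1 rose and the list median was 0.01. All but 1 of the 15 cardiomyocyte markers fell, with Myh6, the cardiac myosin heavy chain, going from 1098, 1174, 2288 and 3129 CPM to 0 to 183 CPM (median 78.5; log2 fold change -4.55, SE 0.45, adjusted p = 2.84e-13, edgeR). Myh6 was at 19480 CPM in cardiomyocyte wells.

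**Figure D4:**
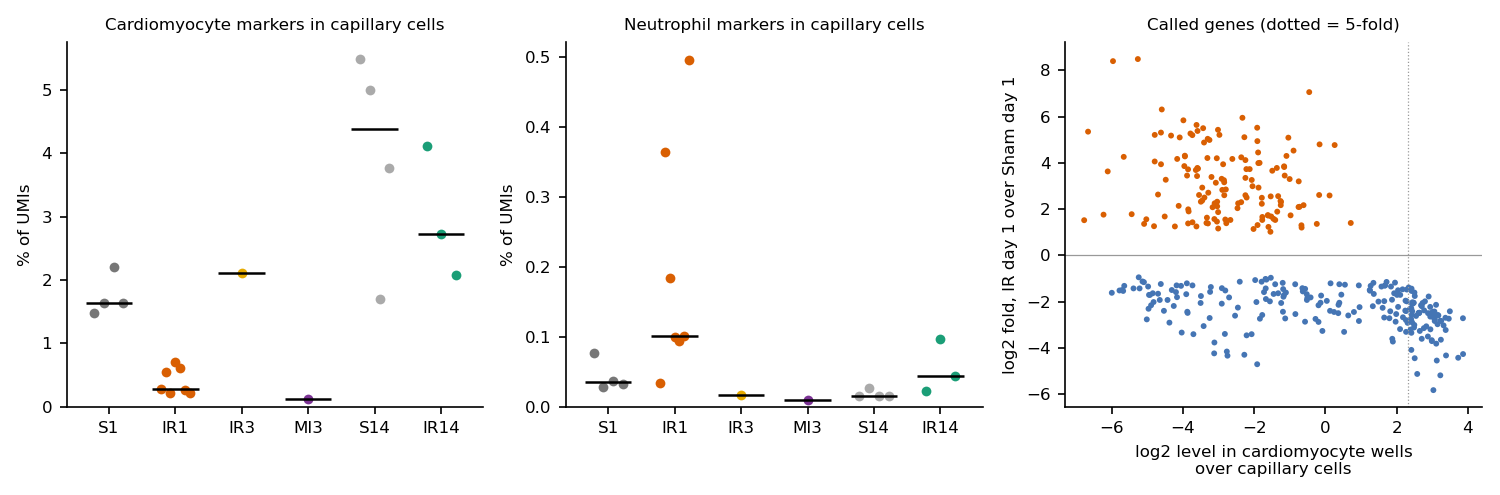
Summed cardiomyocyte markers (left) and neutrophil markers (middle) as percent of capillary UMIs on each plate, with the median of the group as a line, and, for the genes that passed in IR day 1 against Sham day 1, the log2 fold change against the log2 ratio of their level in cardiomyocyte wells to that in capillary cells (right; dotted line, 5-fold). The cardiomyocyte share is 1.48 to 2.2% in Sham day 1 and 0.211 to 0.71% in IR day 1, and 72 of the 224 lower genes lie at or beyond the dotted line.

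At day 3 of IR, only replicate 4, with 12 capillary cells, had enough of them for a test, and it was assumed to vary like the plates of the other groups. In edgeR's test 68 genes were higher than in both shams (0.919% of genes tested) and 0 lower (0.0%), although 184 were lower at an unadjusted p of 0.05, and DESeq2 called 6 higher and 0 lower. At least 5 times higher in macrophage wells than in capillary cells were 53 of the 68, a factor that 3.04% of all genes tested met. The macrophage marker list, none of it used in the rule, summed to 0.185% of UMIs on this plate, against 0.00259 to 0.022% in Sham day 1 and 0.00134 to 0.126% in Sham day 14, and 1 cell with 0.811% rule macrophage markers gave 40.7% of the plate's UMIs. Without wells over 30000 UMIs, an alternative chosen after seeing the data, 16 genes passed.

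Among the capillary lists at day 3 few genes passed. Col15a1, a basement membrane collagen, was at 787 CPM on the IR plate, 17.3, 114, 187 and 220 CPM in Sham day 1 and 61.4, 122, 214 and 362 CPM in Sham day 14 (log2 fold change 2.39, SE 0.61, adjusted p = 0.02, edgeR). It was above all 8 sham plates, as 18.7% of genes tested were above or below them, and Col15a1 was at 1388 CPM in fibroblast wells against 344.7 CPM in capillary cells. The tubulin Tubb6 rose too (3.59, SE 0.88, adjusted p = 0.0121), as did the cell cycle genes Pcna and Mcm6 among 14 of proliferation, whose median was 2.38. The well with 0.811% rule macrophage markers gave 64.6% of the Pcna UMIs, 68.8% of the Mcm6 UMIs and 35.8% of the Col15a1 UMIs of IR day 3. The Col15a1 call was lost under 6 of 19 alternatives other than leaving out a plate, and that of Tubb6 under 4 of 18. Lgals3, a macrophage lectin, was at 347 CPM and had 0 UMIs in both shams, where 3 UMIs would be 5.34 CPM at day 1 and 11.3 CPM at day 14. None of 21 identity genes (median -0.29) and none of 14 lipid genes (median -0.41) passed. Tcf15 was at 174 CPM, Sparcl1 at 1420 CPM and Sdpr at 1175 CPM on this plate, with no call.

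At day 14 of IR, few genes passed against the day 14 sham. With 3 IR and 4 sham plates, 1 gene was higher (0.0135% of genes tested) and 1 lower (0.0135%), 0.027% in all. Gm10785, annotated as an antisense transcript (chr16:91688898-91715642, plus strand, GRCm38), was at 926, 1368 and 2074 CPM in IR day 14 and at 227, 311, 491 and 542 CPM in Sham day 14 (log2 fold change 2.02, SE 0.42, adjusted p = 0.0233, edgeR). It was also lower in Sham day 14 than in Sham day 1, where it was at 805, 1199, 1222 and 1597 CPM (-1.76, SE 0.4, adjusted p = 0.0322). Leaving out a plate ended the Gm10785 call at day 14 in 5 of 20 fits and that between the shams in 6 of 20, and either call was lost under 7 of 17 other alternatives. The RNA quality list (Rn45s, Malat1, Neat1, Kcnq1ot1 and Lars2) moved alongside, with medians of 11.6% of UMIs per plate in Sham day 1, 4.88% in Sham day 14 and 9.69% in IR day 14. None of its 5 genes passed in these comparisons, their median log2 fold changes were 1.2 (IR day 14 against its sham) and -1.34 (between the shams), and its part in the Gm10785 result was not tested. H2-Ab1 was at 0 on all 3 IR plates, where 3 UMIs over the group would be 10.5 CPM, and at 15.3, 51.8, 53.4 and 1289 CPM in Sham day 14, where 85.7% of its UMIs came from 1 cell. It lost the call in 4 of 20 fits that left out a plate and under 8 of 16 other alternatives. A count of so few calls does not show that the groups were alike, since 205 genes were higher and 137 lower at an unadjusted p of 0.05.

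None of the genes described for day 1 other than H2-Ab1 passed at day 14. Tcf15 was at 274, 403 and 437 CPM against 460, 466, 473 and 681 CPM in Sham day 14. Lpl was at 2145, 2231 and 2273 CPM against 1503, 2329, 2925 and 3886 CPM, and Sparcl1 at 2370, 3050 and 3326 CPM against 2351, 2639, 3367 and 5072 CPM. Tcf15 was thus lower on every IR plate without passing the test (6.11% of genes tested did not overlap here), and the plates overlapped for Lpl and Sparcl1. Mcam was at 211, 254 and 274 CPM against 0, 91.6, 104 and 214 CPM, with overlap (log2 fold change 1.24, SE 0.51, adjusted p = 1.0, edgeR). Medians of 21 identity genes (0.09), 14 lipid genes (-0.09) and 25 interferon genes (0.13) lay near the 0.04 of all genes, and 0 genes of these lists passed.

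Whether IR acted differently at day 1 and day 14 was tested as the difference of the 2 effects. In that test of the difference in log2 fold change 10 genes were higher (0.135% of genes tested) and 34 lower (0.459%) at day 1, 0.594% in all. Sparcl1 (-1.98, SE 0.48, adjusted p = 0.0215) and Rsad2 (-2.77, SE 0.64, adjusted p = 0.0106) had the lower change at day 1. Rsad2 was at 277, 442 and 578 CPM in IR day 14 and at 260, 401, 430 and 518 CPM in Sham day 14. Cdkn1a (3.12, SE 0.66, adjusted p = 0.00461) and Slc2a1 (6.45, SE 1.6, adjusted p = 0.0249) had the higher change at day 1, all in edgeR. At day 14 the log2 fold change of Cdkn1a was -0.87, and Slc2a1 had 5 UMIs in Sham day 14 and 1 in IR day 14. When each of the 20 plates was left out, the Sparcl1 and Slc2a1 differences each lost the call 7 times, that of Rsad2 2 times and that of Cdkn1a 0 times. Of the 10 higher genes 6 were at least 5 times higher in neutrophil wells and 5 in macrophage wells, and 4 were under that factor in all 4 kinds of well. Kcnq1ot1 of the RNA quality list was lower, and the list median was -1.28. Of the 34 lower genes 13 were at least 5 times higher in cardiomyocyte wells, Myh6 among them (-3.56, SE 0.64, adjusted p = 0.000565).

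After MI, 4 of 16 sprouting genes and 10 of 22 cytoskeleton genes were higher, and cardiomyocyte RNA was low on the plate of the test. Only replicate 4 with 5 cells entered the test, so each value below is 1 plate, assumed to vary like the others, beside 4 further plates with 1 to 4 cells. In edgeR 90 genes were higher than in both shams (1.22% of genes tested) and 45 lower (0.608%), 1.82% in all, with a median over all genes of -0.24. With a single plate, 30.3% of genes tested lay outside the range of the sham plates. Over all genes tested, 91.4% were under the 5-fold factor in all 4 kinds of well, and 28.7% were highest in the capillary cells. For 69 of the 90 higher genes no other kind of well exceeded the capillary cells 5 times, and 32 were highest in the capillary cells. Among the 45 lower genes, 24 were at least 5 times higher in cardiomyocyte wells, and all 15 cardiomyocyte markers fell. Myh6, Myl3, Ryr2, Tnnc1, Ttn and Fabp3 had 0 UMIs on the MI plate, and the list made up 0.123% of its UMIs against 1.48 to 5.48% on the sham plates. Actc1 was at 39.8 CPM there and at 0 to 36.1 CPM on 3 of the remaining MI plates, but at 3078 CPM on replicate 5, where 1 cell held 93.8% of all Actc1 UMIs of MI. The MI cells were also deeper than the rest, and after thinning every cell to 1000 UMIs 13 genes passed. The part of depth and of cardiomyocyte RNA in these calls was not tested.

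Sprouting genes passed for 4 of 16, all higher, with a list median of 1.39. Cxcr4, the chemokine receptor of tip cells, was at 697 CPM on the MI plate, 16 to 85.2 CPM in Sham day 1 and 26.7 to 104 CPM in Sham day 14 (log2 fold change 3.89, SE 0.63, adjusted p = 9.94e-06, edgeR). The remaining MI plates had 36.1, 41.1, 211 and 480 CPM of it, so that 2 of them lay within the sham range. The Notch ligand Dll4 was at 876 CPM against 51.8 to 160 CPM (2.82, SE 0.57, adjusted p = 0.000708), and at 185, 400, 422 and 542 CPM on the remaining MI plates, all above the shams. Pgf was at 518 CPM against 0 to 44 CPM (5.69, SE 0.93, adjusted p = 1.06e-05), with 40, 165, 181 and 703 CPM on the others. Mcam, which was also higher at day 1 of IR, was at 1573 CPM against 0 to 233 CPM in the shams (3.38, SE 0.49). In IR day 3 it did not pass, and its log2 fold change ran from 0.48 to 0.95 when a plate was left out.

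Igfbp3, Bmp2 and Inhbb rose in MI. Igfbp3, a binding protein of insulin-like growth factors, was at 2190 CPM on the MI plate and at 617, 1898, 2838 and 4227 CPM on the other 4. In the shams it was at 24, 33, 75.7 and 121 CPM (day 1) and 30.5, 104, 147 and 215 CPM (day 14), so all 5 MI plates lay above all 8 sham plates (log2 fold change 4.60, SE 0.54, adjusted p = 4.9e-10, edgeR). At an equal depth of 1000 UMIs, 42.9% of MI cells had an Igfbp3 UMI, against 8.16 and 6.35% in the shams. Igfbp3 lies on chromosome 11 (chr11:7206086-7213923, minus strand, GRCm38). Bmp2, a ligand of the BMP receptors, was at 1234 CPM, and at 0, 160, 165 and 246 CPM on the remaining MI plates, while 1 UMI was found in all sham cells together (ratio 1010, exact 95% counting interval 175 to 40600, adjusted p = 2.98e-15). A single cell gave 53.1% of the Bmp2 UMIs of MI. Inhbb, a subunit of activin B, rose by 6.42 (SE 1.08, adjusted p = 2.07e-05), and the protease Adamts4 was at 119 CPM with 0 UMIs in both shams, and at 0, 0, 70.3 and 123 CPM on the remaining MI plates.

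Of 22 cytoskeleton genes 10 rose in MI and 0 fell, with a median of 1.69. Actb was at 12663 CPM on the MI plate, 1523 to 2563 CPM in Sham day 1 and 1565 to 2328 CPM in Sham day 14 (log2 fold change 2.48, SE 0.43, adjusted p = 3.92e-05, edgeR). Vim, the intermediate filament of mesenchymal and activated endothelial cells, was at 4977 CPM against 505 to 1232 CPM (2.65, SE 0.43, adjusted p = 9.94e-06), and at 5922, 5996, 10116 and 11739 CPM on the remaining MI plates. The thymosin Tmsb10, 1 of the 11 secreted factors of the study and the only one of them to pass here, was at 2429 CPM against 51.8 to 497 CPM (2.83, SE 0.46, adjusted p = 9.94e-06). On the 4 remaining MI plates Tmsb10 was at 1839 to 2694 CPM. All 5 MI plates were above the 8 sham plates for these 3 genes, although Actb was at 3693 and 7851 CPM on the 2 small Sham day 14 plates with 1 to 4 cells.

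Lower in MI were Sdpr (438 CPM against 1452 to 3314 CPM, log2 fold change -2.60, SE 0.67, adjusted p = 0.0163, edgeR) and Txnip, an inhibitor of glucose uptake that flow and glucose regulate (179 CPM against 849 to 2381 CPM in the shams, -2.93, SE 0.75, adjusted p = 0.0154). Lpl was at 856 CPM against 1503 to 3903 CPM and did not pass (-1.96, SE 0.63, adjusted p = 0.0978). Sparcl1, low at day 1 of IR, was at 2250 CPM on the MI plate, inside the sham range. None of 14 lipid genes, 21 identity genes and 25 interferon genes passed. The median of the lipid list was -1.33, and -0.67 when the 3 genes with 0 UMIs in either group were set at the bound given by 3 UMIs. The median share of mitochondrial transcripts per cell was 9.33% on the MI plate and 41.7 ± 8.47% (SD, n = 8) in the shams, and with 1 plate against 8 the exact permutation test cannot go below its p of 0.111.

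**Figure D5:**
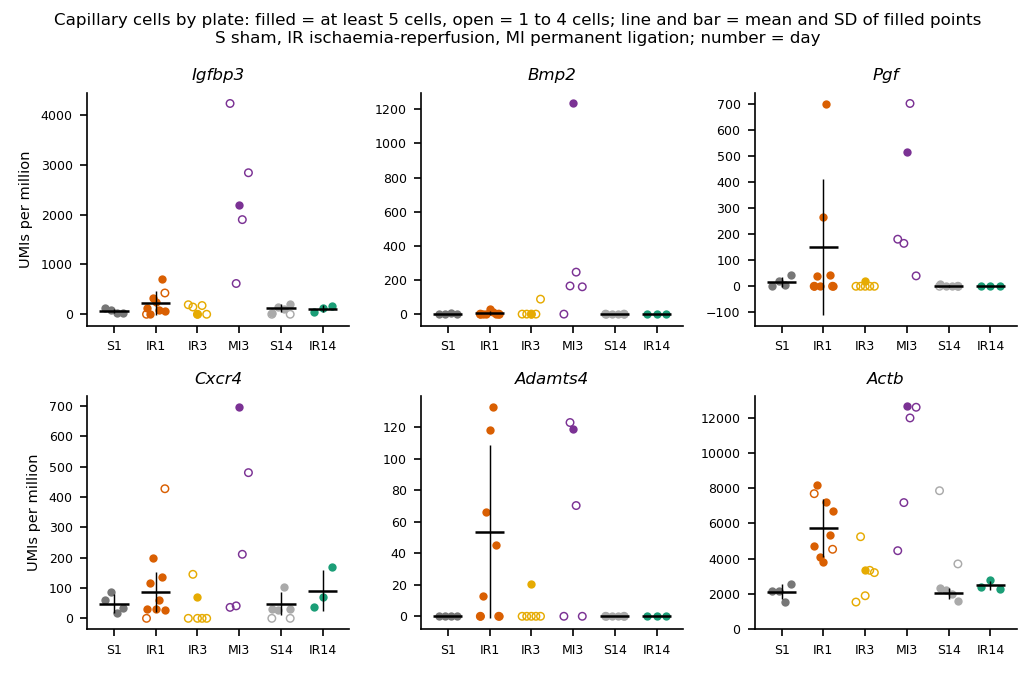
CPM per plate of 6 genes that passed in MI day 3 against both shams, drawn as in the plot of the 12 day 1 genes. Igfbp3 is at 617 to 4227 CPM on the 5 MI plates and at 24 to 215 CPM on the 8 sham plates with at least 5 cells, whereas Bmp2 ranges from 0 to 1234 CPM over the MI plates.

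Permanent and temporary ligation were set against each other at day 3 with 1 plate each, so that neither group has a replicate and the spread in the test is wholly that of the other groups. Here 2 genes were higher in MI (0.027% of genes tested) and 9 lower (0.122%), and 8 of the 9 were at least 5 times higher in cardiomyocyte wells. Igfbp3 was at 2190 CPM in MI and 10.2 CPM in IR, where that was 1 UMI (ratio 214, exact 95% counting interval 37.7 to 8540, adjusted p = 0.000708, edgeR). Such intervals cover counting error only. On the 5 IR day 3 plates with 1 to 4 capillary cells it was at 0, 0, 145, 175 and 191 CPM, all below the lowest MI plate. Bmp2 was the other gene, with 0 UMIs on the IR plate of the test and 2 UMIs in IR day 3 as a whole. The cytoskeleton list had 0 calls and a median of 1.09 in this comparison.

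Between the 2 shams, 3 genes were higher at day 14 (0.0405% of genes tested) and 4 lower (0.054%), 0.0946% in all. The cardiac actin Actc1 was at 715, 986, 1036 and 1174 CPM in Sham day 1 and at 2846, 4428, 6491 and 7303 CPM in Sham day 14, without overlap, which held for 5.82% of genes tested (log2 fold change 2.24, SE 0.44, adjusted p = 0.00621, edgeR). Actc1 is a cardiomyocyte gene, and the cardiomyocyte markers as a list summed to 1.7 to 5.48% of capillary UMIs in Sham day 14. Without the cells over 2% of these markers, which include Actc1 itself, the Actc1 change was 0.35 (adjusted p = 0.98). That fit had 2 Sham day 14 plates. Lcn2, an acute phase protein, was at 0, 28.4, 33 and 296 CPM in Sham day 1, with 62.5% of its UMIs from 1 cell, and had 0 UMIs in Sham day 14, where 3 UMIs would be 11.3 CPM. None of the 21 identity and 14 lipid genes passed.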

How the data were processed

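Single cells of 36 SORT-seq plates (13824 wells) were analyzed. The authors deposited counts: UMIs per gene and well, corrected by them for repeated molecules and not normalized. Mapping used BWA and the build GRCm38/mm10, per the submitters' processing notes. UMIs mark the 3′ ends of transcripts, so levels were not divided by gene length. Spike-ins and the pooled mitochondrial row were left out of totals, leaving 20720 gene symbols, and deposited values were whole numbers throughout.

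Capillary cells were selected as stated in the report. The members and gene lists were chosen with earlier results of these data known. A Sham day 14 plate (replicate 2) in which 34 wells repeated replicate 7 and 17 repeated IR day 3 replicate 6 was left out, replicate 6 being kept, and 15 wells of IR day 1 replicate 9 that repeated replicate 5 were found. Without copied wells 303 capillary cells were left. Doublets were not called. For reference, wells with at least 10% cardiomyocyte markers (886), at least 2% neutrophil markers (105), and macrophage (408) and fibroblast (265) wells were used.

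Counts of the capillary cells were summed per plate, plates with at least 5 cells were kept, and genes were filtered with filterByExpr (min.count 5, min.total.count 15). One model of 6 groups was fitted with edgeR 4.0.16 in R 4.3.3 (TMM scaling, quasi-likelihood test, Benjamini-Hochberg adjusted p of 0.05), after the procedure had been tested on simulated data. Its log2 fold changes follow that scaling and can differ from ratios of CPM. Alternatives were DESeq2 1.42.0, other scaling, filters, depth limits, thinning of each cell to 1000 UMIs, marker limits, a replicate block and leaving out each plate. Leaving out wells over 30000 UMIs, leaving out cells over 2% cardiomyocyte markers, and asking for an excess of at least 3 capillary UMIs were chosen after seeing the data. Mitochondrial shares were compared with two-sided exact permutation tests. Genes were named by rule: in each comparison the 10 higher and 10 lower of largest log2 fold change among genes that passed, lay outside the choosing rule, did not overlap between plates and reached 100 CPM in the higher group were eligible, together with up to 4 members of each list of highest CPM and any that passed. A few genes named for a single cell or another cell type were chosen after their values were seen. Sdpr and Emp1 belong to no list, were not among these 10 at IR day 1, and were named outside the rule. Python analyses used numpy 2.4.6, scipy 1.17.1 and pandas 2.3.3. One result of the gene lists is not reported here.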

Additional observations from a re-analysis of the deposited data

Results flagged for a closer look

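In 68 sets of 4 to 10 plates the highest or lowest plate was compared with the rest, and 7 stood apart, where chance gives about 1 in 20. On IR day 1 plates Thbs1 was at 1461 CPM on replicate 1 (65.9 to 315 CPM on the others) and Fn1 at 5314 CPM on the same plate (28.5 to 338 CPM). Ier3 was at 1251 CPM on replicate 4 (399 to 676 CPM), Pgf at 701 CPM on replicate 7 (0 to 265 CPM) and Cd74 at 57.1 CPM on replicate 9 (0 to 22.5 CPM). Ccl2 was at 47.3 CPM on Sham day 1 replicate 2 (0 to 8.01 CPM). Capillary cells were 18.18% of wells on IR day 3 replicate 1 and 1.49 to 7.41% on the others with wells over 1000 UMIs.

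The effect of IR differed between day 1 and day 14 by the edgeR test of the difference for 5 of the named genes. The log2 difference was -1.98 for Sparcl1 (SE 0.48, adjusted p = 0.0215), -2.77 for Rsad2 (SE 0.64, adjusted p = 0.0106) and -3.56 for Myh6 (SE 0.64, adjusted p = 0.000565), all lower at day 1. It was 3.12 for Cdkn1a (SE 0.66, adjusted p = 0.00461) and 6.45 for Slc2a1 (SE 1.6, adjusted p = 0.0249).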

How the results depend on the processing

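Counts of genes that passed depended on the processing, and the cause was not tested. Some alternatives also changed the number of cells or plates that entered. For IR day 1 against Sham day 1 (369), 227 genes passed with DESeq2, 89 with a replicate block, 79 after thinning to 1000 UMIs and 215 without cells over 2% cardiomyocyte markers, and 221 to 423 when each plate was left out, the lowest without Sham day 1 replicate 3. For IR day 3 against both shams (68), 44 passed with min.count 10, 6 with DESeq2, 15 with the block, 103 with at least 10 cells, 4 after thinning, 8 with endothelial markers of at least 1%, 16 without wells over 30000 UMIs and 26 against Sham day 14 alone (59 to 90 leaving out a plate). For IR day 14 against Sham day 14 (2), 0 passed with min.count 10, the block, at least 3 cells, 2000 UMIs or without cells over 2% cardiomyocyte markers. There 13 passed with no filter, 6 with DESeq2, 11 with at least 10 cells, 7 after thinning, 6 with markers of at least 1%, 11 without cells over 5% cardiomyocyte markers, 5 without deep wells, and 0 to 11 leaving out a plate (0 without Sham day 14 replicate 8 or IR day 14 replicate 2 or 3, and 11 without Sham day 14 replicate 1).

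For MI against both shams (135), 72 passed with the block, 458 with at least 3 cells per plate, 13 after thinning, 84 without cells over 2% cardiomyocyte markers, 85 against Sham day 1 alone and 110 to 157 leaving out a plate. For MI against IR day 3 (11) these were 17 with the block, 68 with at least 3 cells, 3 after thinning, 23 without deep wells, 5 without cells over 2% cardiomyocyte markers and 11 to 14 leaving out a plate. With 10 cells per plate as the minimum, or markers of at least 1%, no MI plate was left. Between the shams (7), 12 passed with no filter, 12 with DESeq2, 4 with the block, 3 with at least 3 cells, 66 with at least 10 cells, 4 with 2000 UMIs, 11 with markers of at least 1%, 0 without cells over 2% cardiomyocyte markers and 4 to 8 leaving out a plate. For the difference between day 1 and day 14 (44), 3 passed with the block, 29 with at least 3 cells, 28 with at least 10, 29 with 2000 UMIs, 80 without deep wells, 7 without cells over 2% cardiomyocyte markers and 24 (without IR day 14 replicate 1) to 72 (without Sham day 14 replicate 1) leaving out a plate.

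The deviations of plates of the same number had correlations of -0.17 to 0.13. With few plates per group and few cells per plate, these cannot show whether such plates share a mouse or batch. Leaving out a plate moved the mitochondrial difference for IR day 1 from -4.41 to 2.75 percentage points, for IR day 14 from -6.17 to 1.54, between the shams from -1.36 to 6.65, for IR day 3 from -15.7 to -12.4 and for MI from -34.3 to -31.0. The Fn1 log2 fold change at IR day 1 ran from -0.11 (without IR day 1 replicate 1) to 3.14 when a plate was left out, and reversed to -0.37 (at least 10 cells) and -0.15 (markers of at least 1%). Of 3604 recomputed single-gene values, 3321 kept direction and side of the threshold, 272 lost the call, 8 gained it and 3 reversed.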

Other observations

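Variation among the 304 capillary cells was ranked over all groups together, so that it holds differences between groups and plates as well as between cells. Each cell was thinned to 1000 UMIs and the 805 genes common enough were ranked by how far their variance exceeded their mean, which counting error alone would give. The ribosomal precursor Rn45s led with a mean of 60.8 UMIs per cell (seen in 98.7% of cells, highest 365), followed by the imprinted antisense transcript Kcnq1ot1 with 24.1 (96.7%, highest 186). Myh6 had a mean of 2.4, was seen in 52.6% of cells and reached 48. Cd36 (mean 5.74, seen in 93.4%, highest 22) was among the 15 most variable, as was Fabp4, whose spread is shaped by the rule that uses it. Rhox8, a homeobox gene of the reproductive tract, was seen in only 2.96% of cells and reached 66 UMIs in 1 of them.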
